A study of Mus musculus with 12 samples.

Results

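The genes described here encode the contractile apparatus, the calcium handling proteins and the energy enzymes of skeletal muscle, and were followed through 12 pools of mouse abdominal fat pads. They were chosen by name: 42 genes were listed, 41 of them were found in the platform's annotation with 68 probe sets, and no probe set was listed there for Xirp2. The 41 genes are part of 18195 genes measured. A gene's value is the mean of its probe sets, and 13 of the 41 genes had more than 1.

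Fat pads came from female C57BL/6 mice in 4 groups of 3 pools each: p47phox null mice on the high fat diet, wild type mice on the high fat diet, p47phox null mice on casein and wild type mice on casein. All the mice began their diet on postnatal day 28 and stayed on it for 13 weeks, and p47phox, the product of Ncf1, is a soluble subunit that the phagocyte NADPH oxidase needs to make superoxide. In the text WT stands for wild type and HFD for the high fat diet. The fat pads were pooled, how many animals went into each is not given in the sources used here, and each pool was measured on 1 Affymetrix array. The sources say no more of how the pools were made up, so p-values measure only the spread between pools, which may be technical. The text on RNA extraction speaks of rats, while the organism and every other label give mouse, and the pools were taken as mouse.

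Values are on the log2 scale, and the authors centred each probe set on its median over the 12 arrays. A value of 1 therefore stands for a doubling over the middle of the 12 arrays, and neither a level nor a signal over background can be read. For the same reason the presence of adipocyte or muscle markers in a pool could not be checked, only how they differed between pools. The targeted gene, Ncf1, ran from -0.29 to -0.19 in the 6 null pools and from 0.07 to 0.85 in the 6 wild type pools, with no overlap. The number of arrays limits the precision.

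Skeletal muscle fibres contract when myosin of the thick filament pulls on actin of the thin filament, and troponin on the thin filament starts this when the sarcoplasmic reticulum releases calcium. Fast fibres and slow fibres build the same machinery from different members of the same gene families, so that a fast and a slow form exist for the myosin heavy chain, the myosin light chains and each troponin subunit. Slow fibres also hold more myoglobin and rely more on oxidative metabolism. Adipocytes are not known for most of these proteins, while muscle lies beside several fat depots. Which cells the RNA of these genes came from was not tested. In whole tissue, fewer muscle fibres and less RNA per fibre cannot be told apart.

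Promoter windows of 4 members are shown because they belong to the fast and slow forms of troponin C, the fast myosin Myh4 and the muscle creatine kinase, genes that the results turn on. They come from RefSeq, build GRCm38.p6, and run from 250 bases before to 50 bases after the start of the gene. Tnnc2 lies at chr2:164779685-164779984 on the minus strand, Tnnc1 at chr14:31208062-31208361 on the plus strand, Myh4 at chr11:67237562-67237861 on the plus strand and Ckm at chr7:19410844-19411143 on the plus strand. Capitals mark E-boxes, CANNTG, the site type bound by MyoD and myogenin, and MEF2 boxes, the site type of the MEF2 family.
Tnnc2: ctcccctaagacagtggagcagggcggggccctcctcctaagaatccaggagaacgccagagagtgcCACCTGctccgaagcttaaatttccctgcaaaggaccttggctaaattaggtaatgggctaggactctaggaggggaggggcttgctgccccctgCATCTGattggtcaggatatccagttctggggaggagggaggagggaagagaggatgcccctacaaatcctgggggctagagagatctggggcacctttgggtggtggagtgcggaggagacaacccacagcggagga
Tnnc1: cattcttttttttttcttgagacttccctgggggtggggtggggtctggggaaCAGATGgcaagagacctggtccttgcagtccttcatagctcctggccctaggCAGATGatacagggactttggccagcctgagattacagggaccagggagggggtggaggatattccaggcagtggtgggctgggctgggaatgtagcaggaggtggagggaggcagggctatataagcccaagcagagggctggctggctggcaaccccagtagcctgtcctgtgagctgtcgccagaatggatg
Myh4: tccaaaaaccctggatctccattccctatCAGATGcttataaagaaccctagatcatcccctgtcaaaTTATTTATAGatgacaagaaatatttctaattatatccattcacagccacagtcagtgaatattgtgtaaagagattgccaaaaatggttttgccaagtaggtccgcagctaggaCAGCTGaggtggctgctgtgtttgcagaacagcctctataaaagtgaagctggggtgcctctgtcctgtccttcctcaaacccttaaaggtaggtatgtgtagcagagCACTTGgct
Ckm: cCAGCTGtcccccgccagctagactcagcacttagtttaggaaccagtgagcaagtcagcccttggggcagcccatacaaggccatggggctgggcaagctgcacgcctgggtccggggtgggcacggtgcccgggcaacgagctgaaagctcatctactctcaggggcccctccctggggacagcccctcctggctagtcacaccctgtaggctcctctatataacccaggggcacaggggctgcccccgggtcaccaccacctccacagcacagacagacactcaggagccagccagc

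The windows of Tnnc2 and Tnnc1 each hold 2 E-boxes, that of Myh4 holds 3 E-boxes and 1 MEF2 box, and that of Ckm holds 1 E-box. RefSeq windows were found for 32 of the 41 genes, 38 windows in all, and were searched on both strands beside all 32851 windows of the same length. The E-box form CAGCTG, which MyoD favours, stood in 21 of the 38 windows (55.3%), against 16.3% of all windows. The looser CANNTG stood in 86.8% of the members' windows, against 72.3% of all. For the MEF2 box the shares were 18.4% and 3.19%, for CATTCC, the MCAT element of TEAD factors, 31.6% and 14.7%, and for the CArG box of serum response factor 7.89% and 1.63%. TATAAA, which can lie within a MEF2 box, stood in 18.4% of the members' windows and 13.6% of all. CAGCTG was as frequent in the 11 windows of fast fibre genes as in the 11 of slow fibre genes, at 45.5% each, and CANNTG stood in 8 of the 11 fast and 11 of the 11 slow windows. These windows belong to 10 fast and 8 slow genes. Among the slow windows with CAGCTG, Myl2 and Tnni1 were each counted more than once, so the shares by gene differ. Windows of 1 gene with several starts can overlap, as for Mb, Tnni1 and Myh7, so the counts are not independent, and a match is a string of letters, not a site shown to be bound.

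The muscle genes varied between pools far more than the groups differed. The median of the 41 genes was 3.18, -0.94 and -0.87 in null HFD pools 1, 2 and 3, -0.99, 4.56 and -0.79 in WT HFD pools, 1.46, 0.43 and -0.53 in null casein pools and 2.19, -0.28 and 0.07 in WT casein pools. Each group thus held exactly 1 of the 4 highest pools, and the other 8 pools lay between -0.99 and 0.43. The mean of these medians was 0.46 ± 2.36 in null HFD pools, 0.93 ± 3.14 in WT HFD pools, 0.45 ± 1.0 in null casein pools and 0.66 ± 1.34 in WT casein pools (SD, n = 3 pools each). The SD was larger than the mean in every group. The means are counted from the middle of the 12 arrays, so this does not compare the spread with a level. The median of all 18195 genes stayed between -0.01 and 0.03 in the 12 pools.

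**Figure D1:**
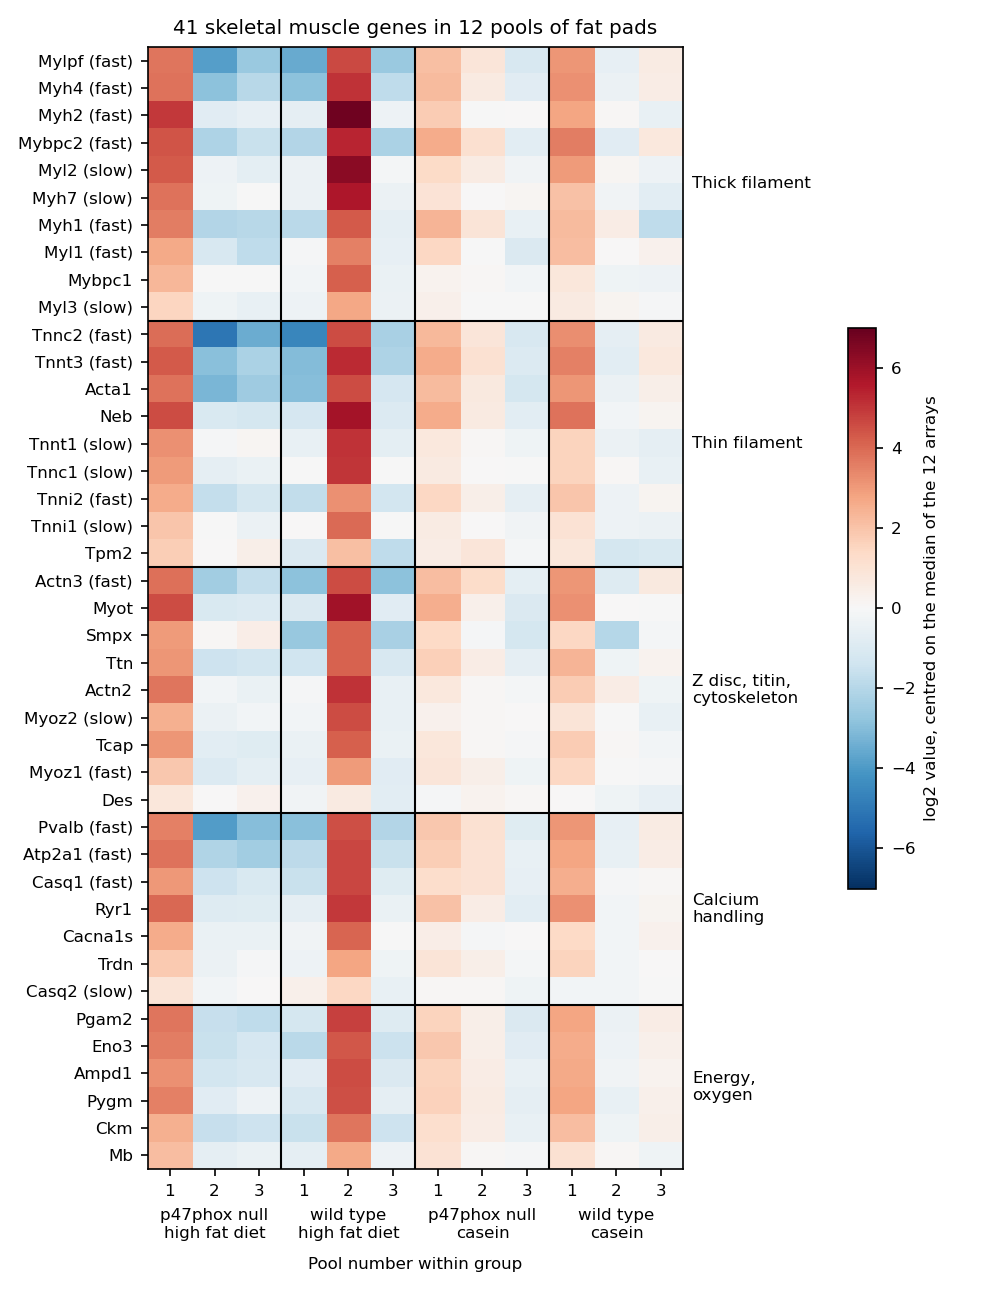
Centred log2 values of the 41 skeletal muscle genes (rows, grouped by role) in each of the 12 pools (columns, 3 in each group), with red above and blue below the median of the 12 arrays. WT HFD pool 2 was the highest pool for 40 of the 41 genes and null HFD pool 1 for Des.

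The same pools led nearly every gene. WT HFD pool 2 was highest for 40 of the 41 genes, against 5.93% of all genes, and the exception was Des, which was highest in null HFD pool 1. The sequence WT HFD pool 2, null HFD pool 1, WT casein pool 1 and null casein pool 1 held for 37 genes, against 0.456% of all genes. The 4 genes that departed from it were Myh1, Tpm2, Des and Casq2. The lowest pool was less uniform: it was null HFD pool 2 for 16 genes, null HFD pool 3 for 9, WT HFD pools 1 and 3 for 7 each and WT casein pool 3 for 2. In that order these were 39.0%, 22.0%, 17.1%, 17.1% and 4.88% of the members. The shares of all genes were 5.72%, 17.3%, 6.9%, 8.26% and 9.97%. These 41 genes had been listed with earlier results of these arrays known, so the shares are a description.

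From its highest to its lowest pool a muscle gene differed by a median of 5.85 log2 units, against 0.50 for all genes. The narrowest was Des at 1.54 and the widest was Tnnc2 at 9.63, a 795-fold difference between pools on the linear scale. A span over 5 was seen in 30 of the 41 genes and in 0.66% of all genes. Of the 120 genes with such a span, these 30 made up 25.0%. The roles differed little in this respect, with a median span of 6.70 for 10 thick filament genes, 5.78 for 9 thin filament genes, 5.57 for 9 genes of the Z disc and cytoskeleton, 5.85 for 7 calcium handling genes and 5.74 for 6 genes of energy and oxygen supply.

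In the thick filament, the fast myosin heavy chains are encoded by Myh4 (type IIb), Myh1 (type IIx) and Myh2 (type IIa), and the slow one by Myh7 (type I). Values below are given for pools 1, 2 and 3 of each group in that order. Myh4 stood at 3.79, -2.89 and -1.93 in null HFD pools, -2.85, 5.03 and -1.80 in WT HFD pools, 2.21, 0.63 and -0.81 in null casein pools and 3.17, -0.42 and 0.51 in WT casein pools. The 4 pools that led it each came from a different group, and the group ranges overlapped. Myh1 stood at 3.60, -2.08 and -1.94 in null HFD pools, -1.89, 4.30 and -0.62 in WT HFD pools, 2.40, 0.91 and -0.52 in null casein pools and 2.19, 0.50 and -1.79 in WT casein pools. In Myh1 null casein pool 1 was above WT casein pool 1, and WT casein pool 3 was among the low pools, unlike in Myh4. Myh2 stood at 4.94, -0.77 and -0.56 in null HFD pools, -0.64, 6.79 and -0.37 in WT HFD pools, 1.77, -0.01 and 0.01 in null casein pools and 2.77, 0.06 and -0.54 in WT casein pools. Its value in WT HFD pool 2 was the highest of any member in any pool, while the 8 other pools lay within 0.83 of each other. Myh7 stood at 3.80, -0.30 and -0.01 in null HFD pools, -0.40, 5.68 and -0.40 in WT HFD pools, 0.97, 0.01 and 0.11 in null casein pools and 2.07, -0.24 and -0.72 in WT casein pools. It followed the pattern of Myh2, with a narrow spread outside the 4 leading pools.

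The regulatory light chains of myosin come in a fast form, Mylpf, and a slow form, Myl2. Mylpf stood at 3.75, -3.87 and -2.58 in null HFD pools, -3.50, 4.62 and -2.61 in WT HFD pools, 2.12, 0.84 and -1.10 in null casein pools and 3.11, -0.56 and 0.56 in WT casein pools. It separated the low pools as clearly as the high ones, with a range of 4.72 over the 8 pools outside the leading 4. Myl2 stood at 4.28, -0.35 and -0.66 in null HFD pools, -0.39, 6.32 and -0.14 in WT HFD pools, 1.35, 0.57 and -0.23 in null casein pools and 2.98, 0.14 and -0.35 in WT casein pools. Over those 8 pools its range was 1.22. The other thick filament genes, the light chains Myl1 (fast) and Myl3 (slow) and the myosin-binding proteins Mybpc2 (fast) and Mybpc1, peaked in WT HFD pool 2 between 2.70 and 5.33.

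In the thin filament, troponin C binds calcium, troponin I holds actin and myosin apart at rest and troponin T anchors the complex to tropomyosin. The fast troponin C gene Tnnc2 stood at 3.91, -5.06 and -3.49 in null HFD pools, -4.55, 4.58 and -2.28 in WT HFD pools, 2.25, 0.87 and -1.13 in null casein pools and 3.27, -0.66 and 0.66 in WT casein pools. Null HFD pool 2, WT HFD pool 1 and null HFD pool 3 were its lowest pools, and the 2 genotypes overlapped on each diet. The slow troponin C gene Tnnc1 stood at 2.96, -0.61 and -0.45 in null HFD pools, -0.01, 5.01 and -0.04 in WT HFD pools, 0.64, 0.01 and -0.05 in null casein pools and 1.56, 0.10 and -0.52 in WT casein pools. It was raised in the same leading pools, but the low pools of Tnnc2 lay within 0.71 of the others in Tnnc1.

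Troponin I repeated this. The fast gene Tnni2 stood at 2.57, -1.68 and -1.24 in null HFD pools, -1.75, 3.18 and -1.28 in WT HFD pools, 1.46, 0.43 and -0.61 in null casein pools and 1.94, -0.36 and 0.22 in WT casein pools. Its slow counterpart Tnni1 stood at 1.94, -0.01 and -0.42 in null HFD pools, 0.01, 3.98 and -0.02 in WT HFD pools, 0.58, 0.03 and -0.23 in null casein pools and 1.03, -0.34 and -0.40 in WT casein pools. Outside the 4 leading pools Tnni1 had the narrowest range of all members, 0.45, against 2.18 for Tnni2. For troponin T, the fast gene Tnnt3 stood at 4.30, -2.91 and -2.20 in null HFD pools, -3.01, 5.25 and -2.18 in WT HFD pools, 2.60, 1.06 and -0.96 in null casein pools and 3.51, -0.75 and 0.75 in WT casein pools. The slow gene Tnnt1 stood at 3.17, -0.11 and 0.12 in null HFD pools, -0.49, 5.07 and -0.71 in WT HFD pools, 0.75, 0.11 and -0.28 in null casein pools and 1.55, -0.40 and -0.63 in WT casein pools. In both, the same 4 pools led and the groups overlapped.

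Skeletal actin, Acta1, stood at 3.82, -3.18 and -2.48 in null HFD pools, -2.97, 4.57 and -1.16 in WT HFD pools, 2.24, 0.67 and -1.22 in null casein pools and 3.09, -0.42 and 0.42 in WT casein pools. Acta1 is made in fast and slow fibres alike, and it had low values in the same pools as Tnnc2, with a span of 7.75. Nebulin, Neb, which runs along the thin filament, had a span of 7.04. Tropomyosin 2, Tpm2, which covers the myosin sites on actin, had a span of 3.93, and its probe sets disagreed.

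**Figure D2:**
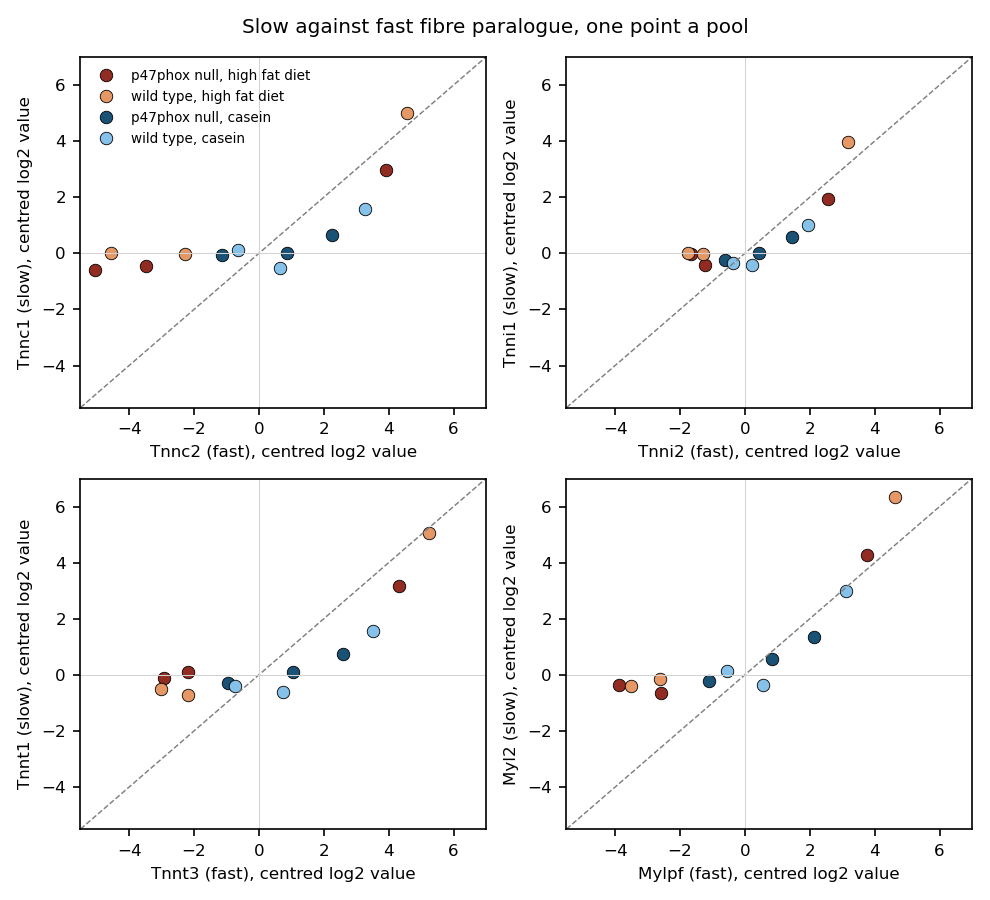
Slow against fast paralogue for troponin C, troponin I, troponin T and the myosin regulatory light chain, as centred log2 values with 1 point for each of the 12 pools; the dashed line marks equal values. Below 0 on the fast axis the slow gene stayed near 0, as in null HFD pool 2, where Tnnc2 was at -5.06 and Tnnc1 at -0.61.

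At the Z disc and along the sarcomere, titin, Ttn, is the spring that ties the thick filament to the Z disc. Ttn stood at 3.09, -1.44 and -1.28 in null HFD pools, -1.38, 4.15 and -1.15 in WT HFD pools, 1.66, 0.49 and -0.61 in null casein pools and 2.35, -0.28 and 0.24 in WT casein pools. It lay close to the median of all the members, with a root mean square difference of 0.29 over the 12 pools. Desmin, Des, the intermediate filament that links Z discs and that smooth muscle makes too, stood at 0.78, 0.04 and 0.32 in null HFD pools, -0.23, 0.63 and -0.75 in WT HFD pools, -0.06, 0.27 and 0.11 in null casein pools and 0.04, -0.32 and -0.59 in WT casein pools. Des had the narrowest span and null HFD pool 1 above WT HFD pool 2. The Z disc genes Actn2, Actn3, Tcap, Myoz1, Myoz2 and Myot and the small muscle protein gene Smpx peaked in WT HFD pool 2 between 2.98 and 5.86.

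Calcium handling starts with the release channel Ryr1 of the sarcoplasmic reticulum. Ryr1 stood at 4.01, -0.88 and -0.87 in null HFD pools, -0.62, 4.97 and -0.45 in WT HFD pools, 2.03, 0.54 and -0.71 in null casein pools and 3.21, -0.18 and 0.18 in WT casein pools. Its 4 leading pools lay 1.49 or more above the remaining 8. Parvalbumin, Pvalb, the calcium buffer of fast fibres, stood at 3.53, -3.91 and -2.96 in null HFD pools, -2.91, 4.51 and -2.05 in WT HFD pools, 1.87, 1.08 and -0.84 in null casein pools and 3.09, -0.60 and 0.60 in WT casein pools. With a span of 8.42, Pvalb ranked with Tnnc2 and Mylpf (8.50) as the widest, and its low pools were those of Tnnc2. The narrow members were triadin, Trdn, which anchors calsequestrin to the channel, and the slow and cardiac calsequestrin, Casq2. Trdn stood at 1.84, -0.39 and -0.07 in null HFD pools, -0.37, 2.78 and -0.29 in WT HFD pools, 0.92, 0.43 and -0.15 in null casein pools and 1.56, -0.17 and 0.02 in WT casein pools. Its span of 3.17 was the third narrowest. Casq2 stood at 0.89, -0.18 and 0.02 in null HFD pools, 0.35, 1.47 and -0.51 in WT HFD pools, 0.07, 0.07 and -0.30 in null casein pools and -0.18, -0.17 and -0.02 in WT casein pools. WT casein pool 1, a leading pool for most members, was not raised in Casq2. The fast calcium pump Atp2a1, the fast calsequestrin Casq1 and the voltage sensor Cacna1s peaked between 4.06 and 4.69 in WT HFD pool 2.

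Among the genes of energy and oxygen supply, Ckm encodes the muscle creatine kinase, which rebuilds ATP from phosphocreatine. Ckm stood at 2.51, -1.59 and -1.43 in null HFD pools, -1.56, 3.73 and -1.44 in WT HFD pools, 1.20, 0.53 and -0.51 in null casein pools and 2.16, -0.31 and 0.40 in WT casein pools. Myoglobin, Mb, the oxygen store of oxidative fibres, stood at 2.14, -0.62 and -0.49 in null HFD pools, -0.60, 2.64 and -0.34 in WT HFD pools, 0.98, 0.10 and -0.10 in null casein pools and 1.05, 0.07 and -0.29 in WT casein pools. Both led in the same 4 pools in the same order, and the range of Mb outside them was 0.73 against 2.12 for Ckm. The glycogen phosphorylase Pygm, the muscle enolase Eno3, the phosphoglycerate mutase Pgam2 and the AMP deaminase Ampd1 peaked between 4.35 and 4.76. Ampd1 was the member nearest to the median of all the members, with a root mean square difference of 0.21.

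Fast and slow fibre genes were then set beside each other in every pool. The 14 fast genes had a median of 3.77, -2.15 and -1.84 in null HFD pools, -1.96, 4.61 and -1.67 in WT HFD pools, 2.0, 0.89 and -0.73 in null casein pools and 2.93, -0.47 and 0.51 in WT casein pools. The 8 slow genes had a median of 2.73, -0.31 and -0.31 in null HFD pools, -0.27, 4.78 and -0.41 in WT HFD pools, 0.61, 0.05 and -0.14 in null casein pools and 1.29, -0.11 and -0.46 in WT casein pools. The same 4 pools led both lists. Because each gene is centred on its own median, a gap between the lists shows how far each lay from its own middle and not which was more abundant.

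**Figure D3:**
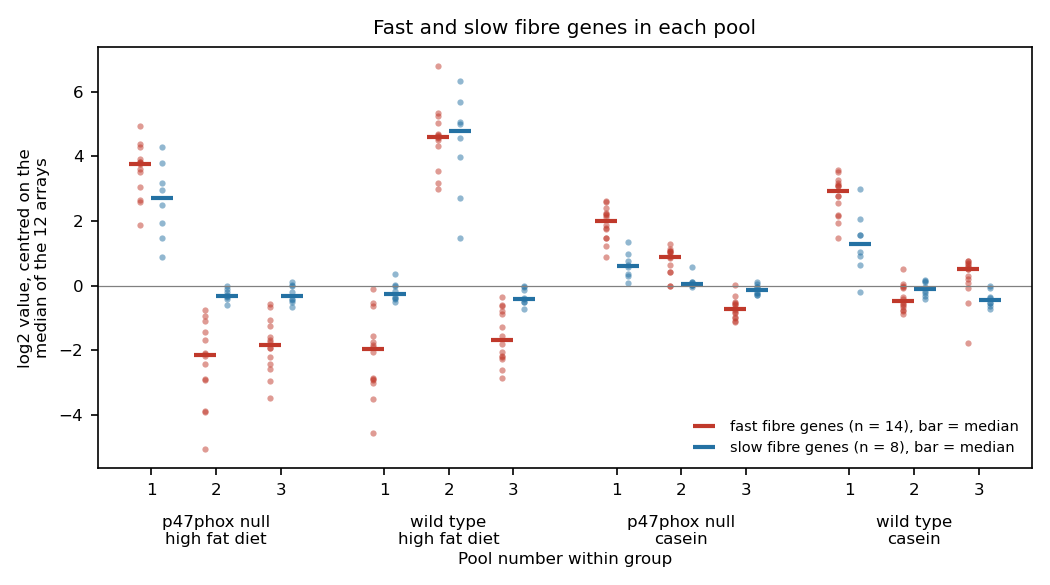
Centred log2 values of the 14 fast fibre genes (red) and 8 slow fibre genes (blue) in each pool, with a point for each gene and a bar at the median of the list. The slow medians lay between -0.46 and 0.05 in the 8 pools outside the leading 4, where the fast medians ran from -2.15 to 0.89.

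The lists differed in where they varied. Over the 8 pools outside the leading 4, the fast genes had a median range of 3.41, from 0.83 for Myh2 to 5.93 for Tnnc2, and the slow genes one of 0.77, from 0.45 for Tnni1 to 1.22 for Myl2. All genes together had a median range of 0.46 over those pools. Within the 4 leading pools it was the reverse: the median range was 2.57 for the fast and 4.29 for the slow genes, against 0.26 for all genes. Signal over background cannot be read from centred values, so a narrow range does not show equal amounts of RNA.

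In 5 of the 6 pairs of leading pools the slow median differed more than the fast one. In WT HFD pool 2 the fast genes were higher than in WT casein pool 1 by a median of 1.63, from 1.25 for Tnni2 to 4.01 for Myh2. The slow genes were higher there by a median of 3.40, from 1.65 for Casq2 to 3.64 for Myoz2, and 6 of the 8 lay above every fast gene but Myh2. Against null HFD pool 1, WT HFD pool 2 was higher by 0.91 in the fast and 1.97 in the slow median. The pair that went the other way was WT casein pool 1 over null casein pool 1, with a fast median difference of 0.96 and a slow one of 0.71. Outside the leading 4, WT casein pool 3 stood 2.78 above null HFD pool 2 in the median fast gene, with all 14 fast genes higher, while the median slow gene differed by -0.06, with 4 of 8 higher. Each of these compares 2 pools, so there is no replicate check.

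The gap of the fast over the slow median was 1.64 in WT casein pool 1, 1.38 in null casein pool 1, 1.05 in null HFD pool 1 and -0.17 in WT HFD pool 2. Its sign in the last of these pools turned, to 0.24, when Mybpc1 and Tpm2 were counted as slow. The gap was -1.83 and -1.53 in null HFD pools 2 and 3, -1.70 and -1.27 in WT HFD pools 1 and 3, 0.84 and -0.59 in null casein pools 2 and 3 and -0.36 and 0.97 in WT casein pools 2 and 3. Quantile normalization was run on the centred values, so it gave every array the same distribution of deviations from the medians. It kept the sign of the gap in all 12 pools but moved 5 values by over 1.5 times. These moved to 0.61 in null HFD pool 1, -1.01, -0.09 and -0.71 in WT HFD pools 1, 2 and 3 and 1.38 in null casein pool 2. On each diet the null pools overlapped the wild type pools in this gap.

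**Figure D4:**
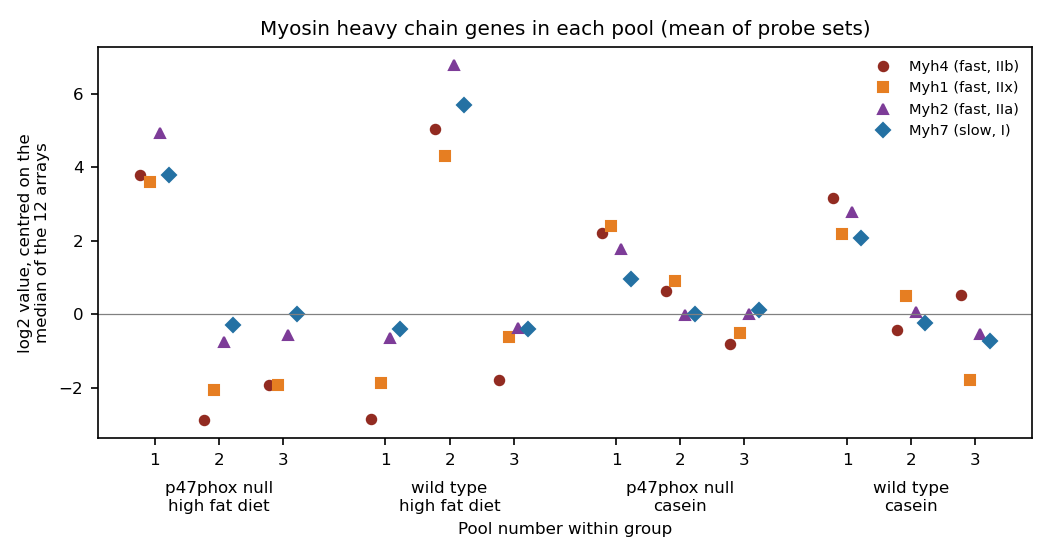
Centred log2 values of the fast myosin heavy chain genes Myh4, Myh1 and Myh2 and the slow gene Myh7 in each pool, each the mean of its probe sets. In WT HFD pool 2, Myh2 at 6.79 and Myh7 at 5.68 lay above Myh4 at 5.03 and Myh1 at 4.30, and in WT casein pool 3 Myh4 was at 0.51 and Myh1 at -1.79.

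The myosin heavy chains differed among themselves by pool. In WT HFD pool 2, Myh2 was higher by 4.01 and Myh7 by 3.61 than in WT casein pool 1, while Myh4 was higher by 1.86 and Myh1 by 2.11. In WT casein pool 3 the widest probe set of Myh1 was at -2.60 and that of Myh4 at 0.76. The same 2 probe sets stood at -2.65 for Myh1 and -5.30 for Myh4 in WT HFD pool 1, and at -1.08 and -3.01 in WT HFD pool 3. Myh4, Myh1 and Myh2 are neighbouring and closely alike genes, and binding of 1 gene's RNA by a probe set of another was not tested. A pair of further probe sets is shared by Myh7 and the cardiac Myh6 and was left out of the means; the first peaked at 4.95 in WT HFD pool 2 and at 3.29 in null HFD pool 1, and the second stayed between -0.16 and 0.28.

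The probe sets of a gene mostly had the same highest pool, while their agreement on the order of the other pools was not computed. Of the 68 probe sets 61 were highest in WT HFD pool 2. A span below 1 was found for 6 of them, 1 each in Des, Mb, Myh1, Tnni2, Trdn and Ttn, and of the other 62 the same pool led 59. Averaging a flat probe set with a wide one narrows the gene: Mb spans 3.26 as a mean, with 0.34 and 6.65 in its probe sets. The widest probe set of all belongs to Myh4, with a span of 10.32. In Tpm2, 2 of 4 probe sets peaked in WT HFD pool 2 and the other two in null HFD pool 1. In Des the wider probe set had a span of 2.95 and the other one of 0.68, and neither peaked in WT HFD pool 2.

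The design crosses genotype and diet, and asks how each alters the fat pad and whether the diet acts alike in both genotypes. For the muscle genes none of these comparisons gave a call. With limma, 0 of the 41 genes passed an adjusted p of 0.05 in any of the 5 comparisons, and 0 had an unadjusted p under 0.05. Across all 18195 genes the share called was 5.92% for null minus wild type on HFD and 0% in each of the other 4 comparisons. Unadjusted, 24.9% of all genes were under 0.05 for the genotypes on the high fat diet, 8.12% for the genotypes on casein, 7.61% for the diets in wild type, 4.0% for the diets in null and 6.12% for the interaction. The standard error of a muscle gene's difference had a median of 1.59 log2 units, against 0.11 for all genes, so differences of several log2 units between groups could go undetected here.

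Group ranges never parted either. In none of the 4 simple comparisons, 0 of 41 genes in each, did the ranges of the 2 groups fail to overlap. Among all genes this held for 32.2% with the genotypes on the high fat diet, 12% with the genotypes on casein, 11.9% with the diets in wild type and 10.6% with the diets in null pools.

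On HFD, null minus WT gave a median difference of -0.46 over the 41 genes, with 37 of them negative and 4 positive, and medians of -0.52 for fast and -0.57 for slow genes. After quantile normalization these were -0.39, -0.61 and -0.19. The direction rested on single pools. Without WT HFD pool 2 the median was 1.37, with 1.57 for the fast and 0.81 for the slow genes, and without null HFD pool 2 or 3 it was 0.27 or 0.18. It was -1.88 without null HFD pool 1 and -1.45 or -1.39 when WT HFD pool 1 or 3 was left out. The smallest p belonged to Des, with a mean of 0.38 in null pools and -0.12 in wild type pools and a difference of 0.50 ± 0.31 (SE, n = 3 pools per group; adjusted p = 0.368 by limma). Tnnc2 differed by -0.79 ± 2.58 (limma adjusted p = 0.891) and Tnnc1 by -1.02 ± 1.32 (limma adjusted p = 0.69).

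On casein, null minus wild type gave a median of -0.26 as deposited, with 9 genes positive and 32 negative. This median turned to 0.12 when the centred values were quantile normalized. It was 0.56 without WT casein pool 1, 0.25 without null casein pool 3, -0.68 without null casein pool 1, and -0.75 or -0.52 without WT casein pool 2 or 3. The fast genes had a median of -0.22, or 0.29 after quantile normalization, and the slow genes one of 0.00. Des again had the smallest p, at 0.39 ± 0.31 (SE, n = 3 pools per group; adjusted p = 0.738 by limma).

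The diets gave medians near 0, with fast and slow medians of opposite sign. In null pools, high fat diet minus casein had a median of 0.01 over the 41 genes, -1.0 over the fast genes and 0.45 over the slow genes. After quantile normalization these were -0.66, -1.83 and 0.23. Tnnc2 stood at -2.21 ± 2.58 and Smpx at 1.15 ± 1.66 (SE, n = 3 pools per group; adjusted p = 1.0 by limma for each). Without null HFD pool 1 the median of all 41 genes was -1.49, that of the fast genes -2.96 and that of the slow genes -0.48. Leaving out null casein pool 2 or 3 gave -0.10 or -0.56 for the 41 genes, and leaving out null casein pool 1 or null HFD pool 2 or 3 gave 0.36, 0.51 or 0.47.

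In wild type pools, high fat diet minus casein had a median of 0.14 over the 41 genes, -0.69 over the fast genes and 1.15 over the slow genes. After quantile normalization these were -0.17, -0.74 and 0.51. Casq2 had the smallest p, at 0.56 ± 0.42 (SE, n = 3 pools per group; adjusted p = 0.761 by limma), and the other ends were Tnnc2 at -1.84 ± 2.58 and Tnnc1 at 1.27 ± 1.32. Without WT HFD pool 2 the medians were -1.60 for the 41 genes, -2.96 for the fast and -0.54 for the slow genes. Without WT casein pool 1 they were 0.80, 0.25 and 1.75. For the 41 genes the median was -0.27 or -0.18 without WT casein pool 2 or 3, and 0.90 or 0.91 without WT HFD pool 1 or 3. The 2 genotype comparisons and the 2 diet comparisons share pools, so their values are not independent.

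The interaction, which subtracts the diet difference of WT from that of null, had a median of -0.26 over the 41 genes, or -0.55 after quantile normalization and -2.05 with array weights, whose estimate did not converge. Its range ran from -1.37 for Myh1 to 1.17 for Smpx, and the smallest p was that of Tnni1 (-0.85 ± 1.40, SE; limma adjusted p = 0.913). Leaving out 1 pool at a time moved the median between -1.65, without null HFD pool 1, and 1.64, without WT HFD pool 2.

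**Figure D5:**
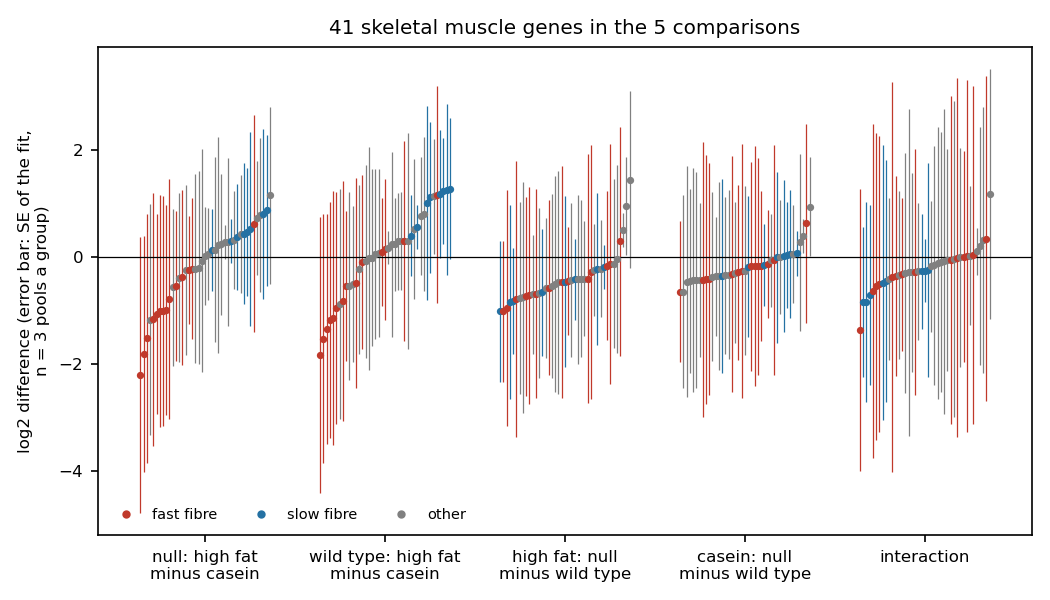
Log2 difference of each of the 41 muscle genes in the 5 comparisons, ordered by size within each, with fast genes in red, slow genes in blue and other genes in grey; error bars are the standard error of the limma fit (n = 3 pools a group). The 41 differences lay between -2.21 and 1.44, beside a median standard error of 1.59 in the simple comparisons.

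Most other muscle genes were also highest in WT HFD pool 2. On a list of further genes of sarcomere, junction and muscle metabolism 66 were measured and 3 were not listed in the annotation, and the median span was 2.27. Of these, 53 had a span over 1, against 15.1% of all genes. WT HFD pool 2 was highest for 51, against 5.93% of all genes. Among the exceptions, Cox7a1 and Cox8b, also on the brown and beige fat list, were highest in WT casein pool 2. Their spans were 4.22 and 2.79. Mylk4, Asb2 and Fbxo32 were highest in null HFD pool 1, and others such as Fhl3 (span 0.24) and Myh7b (0.45) hardly varied. The widest were the mitochondrial creatine kinase Ckmt2 (6.43), the sarcomere-associated Klhl41 (5.82) and Cmya5 (5.49), the muscle LIM protein Csrp3 (5.30), Ankrd23 (5.27) and Asb5 (5.24). With limma 0 of the 66 were called in each comparison, where 5.92% of all genes were called with the genotypes on the high fat diet. Among the 15 genes outside the members that lay nearest to their median over the 12 pools, 13 were on this list. The nearest were Cmya5, with a root mean square difference of 0.20, the muscle cytochrome oxidase subunit Cox6a2 at 0.30, Ankrd23 at 0.34, Tmod4 at 0.37 and Srl at 0.43. Next came Ppp1r27 (0.43), Nrap, Asb5, Ldb3, Rpl3l, Klhl41, Myom2, Adssl1, Ckmt2 and Csrp3 (0.57), and Ppp1r27 and Adssl1 were the 2 not on the list.

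Most regulators of muscle identity moved little. Over 11 measured genes the median span was 0.51, close to that of all genes. WT HFD pool 2 was highest for 5 of the 11, against 5.93% of all genes. A span over 1 was found for 3 of the 11, against 15.1% of all genes. These were Myf6, the regulator kept in mature fibres and also on the list of further muscle genes, at 2.29 in WT HFD pool 2 and 1.07 in null HFD pool 1, Mef2c at 1.46 and 0.54 in those pools, and Eya4, a transcriptional coactivator, whose span was 1.01 with its highest value, 0.73, in WT HFD pool 2. Myod1, Myog and Pax7, which mark activated and resting muscle stem cells or their early descendants, had spans of 0.33, 0.60 and 0.28. Of 4 genes of developing muscle, the embryonic and perinatal myosins Myh3 and Myh8, Myl4 and Chrng, 0 had a span over 1. Myl4, an embryonic and atrial light chain, fell by 0.51 ± 0.12 in null against WT pools on HFD (SE, n = 3 pools per group; adjusted p = 0.0432 by limma), a call kept in 9 of 19 alternatives.

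Most heart genes did not share the pattern. Myh6, the atrial light chain Myl7, Mybpc3 and the natriuretic peptides Nppa and Nppb had spans from 0.30 to 0.77. Cardiac actin, Actc1, shared it in part and in another order. It was highest in WT casein pool 1 at 3.02, against 1.88 in null casein pool 1, 1.51 in WT casein pool 3, 0.92 in WT HFD pool 2 and 0.88 in null HFD pool 1. In the other HFD pools Actc1 lay between -1.53 and -0.96. The cardiac troponins differed by genotype on the high fat diet instead. On casein the genotypes overlapped in both genes (adjusted p = 0.608 for Tnni3 and 0.745 for Tnnt2 by limma). There Tnni3 stood at 0.25, -0.002 and 0.20 in null pools and at 0.52, -2.37 and -2.59 in wild type pools. Tnni3 stood at 0.00, 1.66 and 1.43 in null HFD pools and at -1.83, -2.40 and -2.56 in WT HFD pools. The 2 groups did not overlap, and Tnni3 rose by 3.29 ± 0.71 in null pools (SE, n = 3 pools per group; adjusted p = 0.0316 by limma). Tnnt2 stood at 0.09, 0.31 and 0.95 in null HFD pools and at -0.76, -0.73 and -0.78 in WT HFD pools, a rise of 1.21 ± 0.27 (limma adjusted p = 0.0345). Each of these 2 troponin calls was kept in 11 of 19 alternatives, and over the alternatives the difference of Tnnt2 ran from -0.07 to 2.01. The troponins moved beside 10 ovary genes. The median of these 10 was 0.14, 0.61 and 0.83 in null HFD pools and -1.09, -1.03 and -1.29 in WT HFD pools. Of the 10, 6 were called higher in null pools, beside 5.92% of all genes called in either direction. These 6 calls were kept in 7 (Zp2) to 14 (Inha) of 19 alternatives. The part of ovary tissue in the troponin values was not tested.

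Smooth muscle genes had another pattern, and 4 of 10 were called for null minus WT on HFD. The median of 10 smooth muscle genes was 1.06, 0.46 and 0.82 in null HFD pools, -0.11, -0.41 and -0.70 in WT HFD pools, -0.05, 0.64 and 0.01 in null casein pools and 0.21, -0.66 and -0.72 in WT casein pools. On the high fat diet 4 of the 10 rose in null pools with limma, Smtn, Myocd, Lmod1 and Mylk, and 0 fell. Of all genes 5.92% were called in either direction. Of 19 alternatives, 11 each kept the calls of Myocd and Mylk, 10 that of Smtn and 9 that of Lmod1. Des and Tpm2, which smooth muscle also makes, are among the 4 members that departed from the order of the others, and in both null HFD pool 3 lay above WT HFD pools 1 and 3. Tpm2 differed by 0.96 ± 0.92 between null and wild type pools on that diet (limma adjusted p = 0.573). For Smpx the difference was 1.44 ± 1.66 (limma adjusted p = 0.648). The part of smooth muscle in these values was not tested.

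Markers of other tissues did not lead in WT HFD pool 2. The median of 9 liver genes was 4.64 in WT casein pool 3 and -0.12 in WT HFD pool 2. That of 11 brown and beige fat genes was highest in WT casein pool 2, at 1.85, with 0.89 in WT HFD pool 2 and -0.37 in null HFD pool 1. The median of 7 tendon genes stayed between -0.18 and 0.22, although Thbs4 had a span of 4.27 and Mkx one of 2.35. Mkx, 1 of the 7, rose by 1.48 ± 0.30 in null against WT pools on HFD (SE, n = 3 pools per group, adjusted p = 0.0277 by limma). The call of Mkx was kept in 13 of 19 alternatives. The median of 5 Schwann cell genes lay between -0.37 and 0.23, although Mbp, the myelin basic protein gene, stood at 1.18 in null HFD pool 1 and 1.19 in WT HFD pool 2. The median of 13 adipocyte genes lay between -0.55 and -0.03 in null HFD pools, 0.12 and 0.19 in WT HFD pools, -0.21 and 0.07 in null casein pools and -0.02 and 0.23 in WT casein pools. The leptin gene Lep, the fat cell regulators Pparg and Cebpa and the lipase gene Lpl fell with limma in null against WT HFD pools. These were 4 of the 13, where 5.92% of all genes were called in either direction. Of the 19 alternatives, 16 kept the call of Lep, 14 that of Pparg, 9 that of Lpl and 6 that of Cebpa. Calls of these other tissues rest on few pools: without null HFD pool 2 or pool 3, 0 of 18195 genes were called with the genotypes on the high fat diet.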

How the data were processed

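Total RNA of 12 pools of fat pads, 3 in each of 4 groups, was measured on Affymetrix arrays. Labelling with biotin started from 8 µg of RNA, per the labels. The submitters' processing notes name GCOS and RMA; no version or order is given in the sources used here. The deposited values are log2 values, with the base taken as 2 because RMA gives log2, and the authors centred each of the 45101 probe sets on its median over the 12 arrays (0 depart by more than 1e-06). No array carries a date or batch.

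The annotation gives 1 gene for 34958 probe sets; the 932 with several genes and the 9211 with none were left out. Current symbols came from RefSeq (GRCm38.p6), which held 34754 of them by gene identifier. Probe sets of a gene were averaged. All 18195 genes were tested in 1 fit of 4 group means with limma 3.58.1 in R 4.3.3 (8 residual and 2.50 prior degrees of freedom), two-sided, with Benjamini-Hochberg adjustment and a threshold of 0.05. The fit was tested on simulated data.

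The members and gene lists were chosen with earlier results of these data known. Named pool by pool are the fast and slow paralogues, the myosin heavy chains and Acta1, Ckm, Mb, Ryr1, Pvalb, Ttn and Des. To these come the member with the smallest p in each comparison, the 3 widest and 3 narrowest members, the 15 nearest other genes and up to 6 of each other list; Tpm2, Smpx, the members given only as a peak value and the called genes of other lists were named after their values were seen. A total of 19 alternatives were run, 12 of which left out 1 pool. Quantile normalization was run on the centred values and not on intensities.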

Additional observations from a re-analysis of the deposited data

How the results depend on the processing

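In each of the 5 comparisons 0 of the 41 muscle genes were called by limma under all 19 alternatives; their smallest adjusted p was 0.0984, with the genotypes on the high fat diet and without WT HFD pool 2. The median difference of the 41 genes moved by less than the spread between pools (SD 2.13) in every alternative, but its sign did not hold. That SD describes single pools of a group and is not the standard error of a difference between groups. Leaving out 1 pool at a time gave -1.88 to 1.37 for null minus wild type on the high fat diet, -0.75 to 0.56 on casein, -1.49 to 0.51 for the diets in null pools, -1.60 to 0.91 for the diets in wild type pools and -1.65 to 1.64 for the interaction. 

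Counts over all genes depended on the setting. With the genotypes on the high fat diet 1077 of 18195 genes were called as reported, 973 with the widest probe set of a gene, 732 with the probe set of highest mean, 636 after quantile normalization, 1199 of the 9254 genes spanning at least 0.5, 1070 with robust eBayes and 0 to 1617 with 1 pool left out, the lowest without null HFD pool 2 or 3. Array weights, whose estimate did not converge, gave 5116 genes there and 942 for the diets in null pools, with medians of the 41 genes of -2.21 and -1.12. One pool left out gave 15 calls for the diets in wild type (without WT casein pool 2), 46 for the genotypes on casein (without WT casein pool 1) and 10 for the interaction (without WT casein pool 2), where 0 genes were called as reported.

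Deviations of same-numbered pools from their group means correlated from -0.61 to 0.59 over 18 pairs of pools, with 3 pairs over 0.1. The highest were 0.59 and 0.55, between null casein and null HFD pools 3 and pools 1. Pools of different numbers correlated from -0.60 to 0.61 over 36 pairs, with 16 over 0.1. Deviations of the 3 pools in a group constrain each other, and whether some same-numbered pools were handled together was not tested. With the replicate block 542 genes were called with the genotypes on the high fat diet, and 0 muscle genes were called in any comparison. Each group has 1 pool of each number, so the block cannot change a difference between groups. The medians of the 41 genes, such as -0.46, were therefore fixed by the design.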
